A study of Mus musculus with 33 samples.

Results

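Lungs of mice that had received 1 airway dose of either of 2 AAV vectors were compared with lungs of untreated mice whose transgenic surfactant protein B (SP-B) had been switched off shortly before harvest. The comparison took in 12 of the 24 right-lung RNA samples harvested at day 97, of 33 samples in the whole study, and all 773 endogenous mouse genes of an nCounter panel. Samples were chosen by their labels alone: 4 labelled AAV-hSPB single and 4 labelled AAV-hSPBTLR9i single were pooled as 8 single-dose lungs and set against the 4 lungs labelled off doxycycline. Each group held 2 female lungs (replicates 1 and 2) and 2 male lungs (replicates 3 and 4).

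All groups shared the genotype CCSP-rtTAtg/(teto)7Sftpb/Sftpb-/- on the FVB/N strain. These animals lack their own SP-B gene and make SP-B only while doxycycline feed drives a transgene through the CCSP promoter, which is active in airway epithelium. The off-doxycycline group received no vector and lost doxycycline at day 94, so it had been without it for 3 days at harvest. Both single-dose groups received AAV-hSPB or AAV-hSPBTLR9i by intratracheal delivery at day 0 and lost doxycycline at day 7, so they had been without it for 90 days. AAV is a small DNA virus used as a gene carrier, and hSPB stands for the human SP-B gene. The labels do not describe the TLR9i element. Ages of the animals, the vector dose and whether each sample came from its own animal are likewise not given in the labels, so p-values measure only the spread between these samples. Vector treatment, time without doxycycline and the source of SP-B all differ between the groups compared and cannot be told apart.

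SP-B is a small hydrophobic protein, made by alveolar type II cells, that spreads surfactant lipid at the air surface and keeps air spaces from collapsing. Its loss is lethal in newborn mice and humans, and withdrawal of SP-B from adult transgenic mice is known to bring on respiratory failure with lung inflammation. Injured airway and alveolar epithelium and resident macrophages release cytokines such as interleukin 6 and chemokines such as Cxcl1 and Ccl2, which draw neutrophils and monocytes into the lung. AAV vectors are known to raise antibodies and T cells against the capsid, and their DNA can be sensed by Toll-like receptor 9.

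The counted molecules per lung totalled 671453 to 749782 in the off-doxycycline group, 622739 to 756539 after AAV-hSPB and 862348 to 980805 after AAV-hSPBTLR9i. All values below are log2 normalized counts as deposited, scaled to reference genes of the panel, so a difference of 1 is a doubling. Background, set from the dimmest control probes, lay between 3.88 and 4.47 on this scale in the 12 lungs, and 74 to 109 of the 773 genes were not above it in a given lung. Ager, which marks alveolar type I cells, was high in every lung, between 13.82 and 14.64. The off-doxycycline lungs varied most among themselves: the median gene had an SD of 0.311 there, against 0.216 after AAV-hSPB and 0.202 after AAV-hSPBTLR9i. Off-doxycycline and AAV-hSPB lungs lie within sample numbers 1 to 12, and AAV-hSPBTLR9i lungs have numbers 13 to 16 and more counts. The labels do not say whether these were measured apart, so the AAV-hSPB comparison is also the one within numbers 1 to 12.

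The pooled comparison asked how a lung kept on vector for months differs from one that has just lost SP-B. Only 3 genes rose after a single dose and 0 fell at an adjusted p under 0.05 (limma, Benjamini-Hochberg over 773 genes), which is 0.388% of the panel. The 2 described here code for signalling proteins. Mknk1 codes for a kinase downstream of MAP kinases that phosphorylates the translation factor eIF4E. Pik3ap1 codes for BCAP, an adaptor that links B cell and Toll-like receptors to phosphoinositide 3-kinase. Neither belongs to a gene list used below.

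Mknk1 stood at 6.40, 6.81, 6.89 and 6.82 in off-doxycycline replicates 1 to 4. It was 7.28, 7.12, 7.17 and 7.22 after AAV-hSPB, and 7.19, 7.18, 7.09 and 7.17 after AAV-hSPBTLR9i. The 8 single-dose lungs thus lay within a narrow band above all 4 off-doxycycline lungs, of which the female replicate 1 was lowest. The difference was 0.45 ± 0.09 (SE from limma, as in all values with ± below unless SD is named), a 1.36-fold rise with adjusted p = 0.032.

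Pik3ap1 was 9.33, 9.41, 9.52 and 9.46 in the off-doxycycline lungs, 9.78, 9.92, 9.85 and 9.86 after AAV-hSPB, and 9.83, 9.64, 9.94 and 9.78 after AAV-hSPBTLR9i. The groups did not overlap, and the lowest single-dose lung was the female AAV-hSPBTLR9i replicate 2. It rose by 0.40 ± 0.08, or 1.31-fold (adjusted p = 0.032). On-doxycycline lungs, given here for their level only, ranged from 6.86 to 7.15 for Mknk1 and from 9.28 to 9.65 for Pik3ap1.

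**Figure D1:**
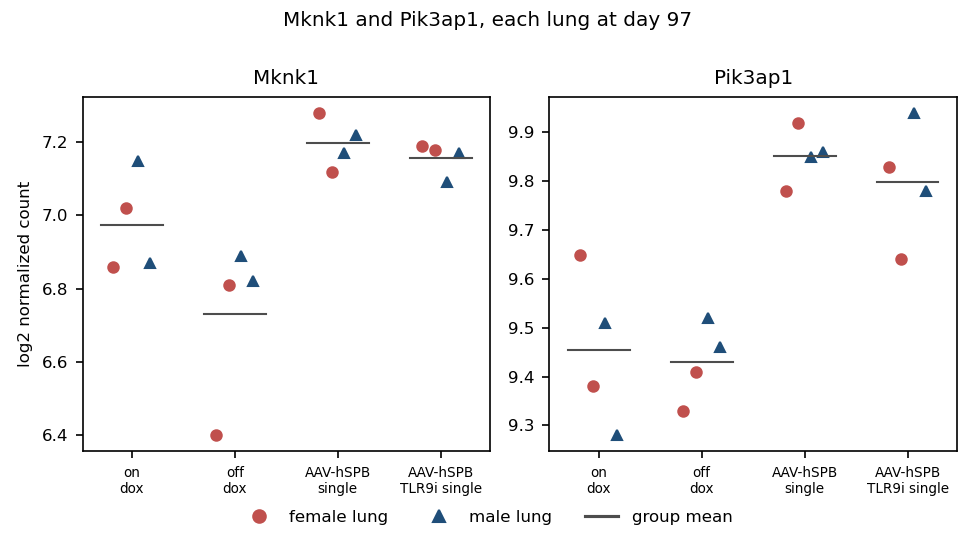
Log2 normalized counts of Mknk1 and Pik3ap1 (vertical axes, not starting at 0) in each day 97 lung of 4 groups, with female lungs as circles, male lungs as triangles and group means as lines. In each panel all 8 single-dose lungs lie above all 4 off-doxycycline lungs, and the range of the on-doxycycline lungs overlaps both.

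These 3 calls rested on small margins. With the 12 compared lungs fitted alone 2 genes passed, 0 of the 3 among them. Mknk1 was then at adjusted p = 0.056 and Pik3ap1 at 0.052. With sex as a covariate 10 genes passed, 9 higher and 1 lower. Scaling each lung to its median gene or to all 12 reference genes left 0 genes past the threshold, with Mknk1 at adjusted p = 0.099 and 0.079. Which off-doxycycline lung was present mattered most: the count was 0 without its female replicate 1 or 2, 40 without male replicate 3 (28 higher, 12 lower) and 95 without male replicate 4 (72 higher, 23 lower). It was also 0 without replicate 1 or 2 of AAV-hSPB and without replicate 1, 3 or 4 of AAV-hSPBTLR9i.

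**Figure D2:**
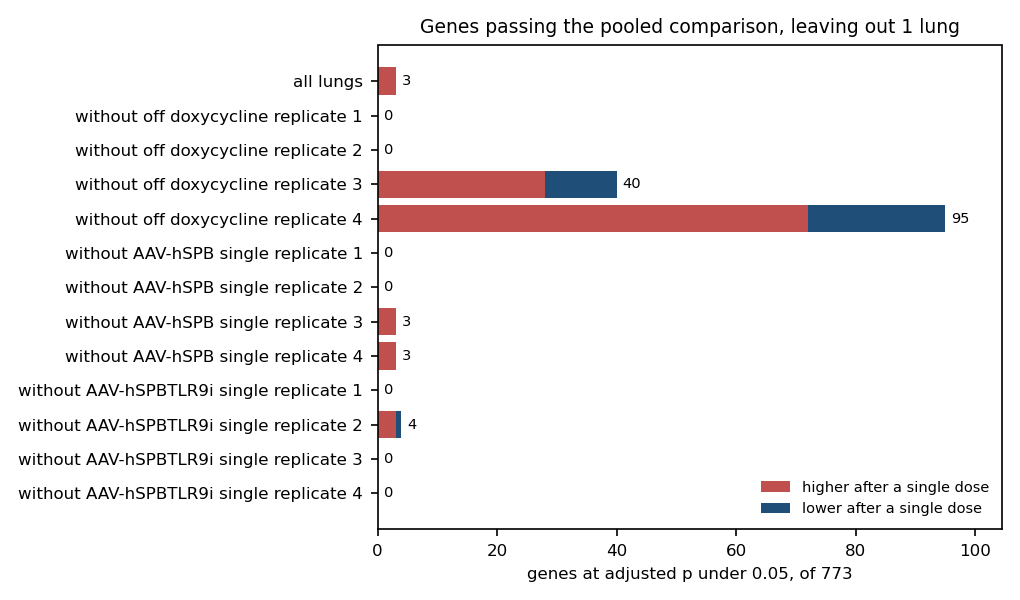
Number of genes, of 773, at adjusted p under 0.05 in the pooled comparison (horizontal axis) with all lungs and after leaving out each of the 12 lungs in turn, split by direction. Counts run from 0 to 4 except without off-doxycycline replicate 3, at 40, and without off-doxycycline replicate 4, at 95.

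Below that threshold the differences were many and mostly upward. At an unadjusted p under 0.05, 183 genes (23.7% of the panel) differed, 145 higher (18.8%) and 38 lower (4.92%) after a single dose. That count was 105 without off-doxycycline replicate 1 and 109 without replicate 2. The median gene was 0.10 higher under the authors' scaling. With each lung scaled to its median gene that median moved to -0.01, and the unadjusted genes divided into 65 higher and 88 lower, so the upward excess depends on the scaling. The list medians below stand beside this panel median of 0.10. Groups did not overlap, all 8 single-dose lungs against all 4 off-doxycycline lungs, for 21 genes on the higher side (2.72%) and 4 on the lower side (0.517%).

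**Figure D3:**
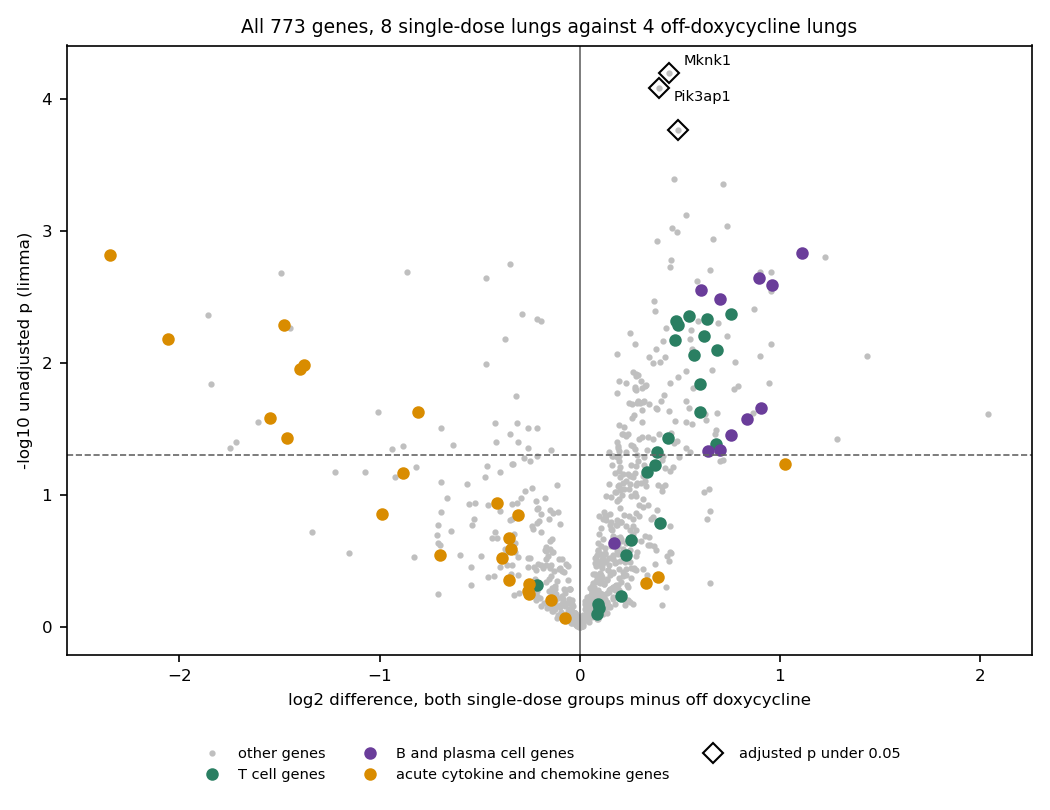
Each of 773 genes by its log2 difference, both single-dose groups minus off doxycycline (horizontal axis), and the -log10 of its unadjusted limma p (vertical axis), with members of 3 gene lists coloured and the 3 genes that passed framed and 2 of them named. B and plasma cell and T cell genes lie mostly to the right of 0, and acute cytokine and chemokine genes mostly to the left, on both sides of the dashed line that marks the unadjusted threshold.

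B and plasma cell genes were the list with the highest median. Of 11 measured members of 19 listed, 0 passed the adjusted test and 10 were higher at an unadjusted p under 0.05 (90.9%, against 18.8% of the panel), with a median difference of 0.76. In bulk RNA fewer cells of a type and less RNA per cell cannot be told apart, and this holds for every list below. The mean level of the 11 genes was 6.40, 6.62, 7.12 and 6.95 in the 4 off-doxycycline lungs and between 7.18 and 7.79 in the single-dose lungs, without overlap. On-doxycycline lungs spanned 6.11 to 7.36 and so lay across the off-doxycycline range.

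Cd79a, which codes for a signalling chain of the B cell receptor, was 7.15, 7.91, 8.18 and 8.00 in the off-doxycycline lungs. It was 9.15, 8.23, 9.08 and 8.60 after AAV-hSPB and 9.05, 7.96, 8.88 and 8.73 after AAV-hSPBTLR9i. The female AAV-hSPBTLR9i replicate 2 lay below the male off-doxycycline lungs and the other 7 single-dose lungs lay above all 4, with a difference of 0.90 ± 0.26 (adjusted p = 0.073). Blk, a kinase of that receptor, differed by 0.96 (adjusted p = 0.076). Cd22, which damps the receptor, differed by 0.61 (adjusted p = 0.078), and Ms4a1, which codes for CD20, by 0.90 (adjusted p = 0.15). The antibody secretion gene Xbp1 was the member without an unadjusted call, at 0.17. Without off-doxycycline replicate 1, the lung with the lowest mean level, the list had 5 members with an unadjusted call in place of 10. The adjusted count went from 0 to 5 without off-doxycycline replicate 3 and to 4 without replicate 4. Over the panel 28 and 72 of 773 genes were then higher past that threshold.

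T cell genes were the next clearest group. Of 24 measured members of 27 listed, 0 passed the adjusted test and 14 were higher at an unadjusted p under 0.05 (58.3%, against 18.8% of the panel), with a median of 0.46. The mean level of the list was 6.89, 6.90, 6.74 and 6.82 off doxycycline and 6.94 to 7.60 after a single dose, so the groups were separate by a small gap. On-doxycycline lungs, which received no vector, were at 7.26, 7.185, 7.11 and 6.65. The first 3 of these lay inside the single-dose range and the last below the off-doxycycline lungs. Members without overlap between the groups numbered 5 of 24, where the panel had 2.72%, namely Cd3d, Cd3e and Cd3g, which code for the CD3 chains of the T cell receptor complex, Tbx21, the master regulator of type 1 T cells, and Ccr6, a chemokine receptor of memory T and B cells.

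Cd3g was 7.95, 7.61, 7.64 and 7.96 in the off-doxycycline lungs, 8.23, 8.49, 8.43 and 8.22 after AAV-hSPB, and 8.61, 8.32, 8.13 and 8.45 after AAV-hSPBTLR9i. Both vector groups therefore lay above the whole off-doxycycline range, by 0.57 ± 0.20 (adjusted p = 0.11). Tbx21 was 4.61, 4.81, 4.57 and 4.57 off doxycycline and 4.87 to 5.82 over the 8 single-dose lungs, a difference of 0.76 ± 0.24 (adjusted p = 0.091). With sex as a covariate Tbx21 passed (adjusted p = 0.037). Without off-doxycycline replicate 3 or 4 the list had 1 and 3 of its 24 members higher past the adjusted threshold. Over the panel 28 and 72 of 773 genes were higher past it in these settings. Cd4, the co-receptor of helper T cells, differed by 0.63 ± 0.20 (adjusted p = 0.091) with overlap at the male AAV-hSPBTLR9i replicate 3. The regulatory T cell factor Foxp3 and the interleukin 7 receptor gene Il7r gave 0.21 and 0.09, with unadjusted p of 0.58 and 0.67.

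Among CD8 T, NK and cytotoxic genes, 4 of 18 measured members were higher at an unadjusted p under 0.05 (22.2%, near the 18.8% of the panel; median 0.26) and 0 passed the adjusted test. Itgae, the CD103 integrin of tissue-resident T cells and airway dendritic cells, differed by 0.65 (adjusted p = 0.073), and Cxcr6, a residence-associated chemokine receptor, by 0.69 (adjusted p = 0.091). Cxcr3, the receptor for interferon-induced chemokines, differed by 0.78 (adjusted p = 0.11), and Cd8b1 by 0.68 (adjusted p = 0.18). Perforin (Prf1) and granzyme A (Gzma) gave 0.12 and 0.15. The lymphoid cytokine gene Ltb, a member of none of the lists, differed by 0.53 (adjusted p = 0.15) without overlap between the groups, and was named after its value was seen.

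Acute cytokine and chemokine genes lay in the opposite direction. Of 25 measured members of 28 listed, 0 passed the adjusted test and 8 were lower after a single dose at an unadjusted p under 0.05 (32.0%, against 4.92% of the panel), with a median of -0.39. None was higher at that p. The mean level of the list was 6.44 and 7.48 in the 2 female off-doxycycline lungs, 5.70 and 5.17 in the 2 male ones, and 5.13 to 6.61 after a single dose. The male off-doxycycline lungs thus lay inside the single-dose range, and the count of 8 became 4 without female replicate 1 and 1 without female replicate 2. The adjusted count went from 0 to 3 without male replicate 3, to 6 without male replicate 4 and to 1 without AAV-hSPBTLR9i replicate 2. Over the panel 12, 23 and 1 of 773 genes were lower past that threshold in these settings.

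Ccl2, the main monocyte attractant, was 9.61, 11.44, 8.64 and 7.05 in off-doxycycline replicates 1 to 4. It was 6.18, 7.31, 6.15 and 7.14 after AAV-hSPB and 5.89, 9.11, 6.28 and 6.66 after AAV-hSPBTLR9i. Its difference of -2.34 ± 0.64 (adjusted p = 0.073) was the largest on the lower side among genes with an unadjusted call. Cxcl1, a neutrophil attractant, was 10.39, 11.95, 8.98 and 8.28 off doxycycline, 7.01, 8.88, 6.74 and 7.28 after AAV-hSPB, and 7.31, 10.76, 7.02 and 7.74 after AAV-hSPBTLR9i, a difference of -2.06 ± 0.68 (adjusted p = 0.095). For Ccl2 the female off-doxycycline lungs were the highest of the 12, while for Cxcl1 the female AAV-hSPBTLR9i replicate 2 lay between them.

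The others of the 8 were Ccl7, a relative of Ccl2, at -1.40 (adjusted p = 0.12), the epithelial alarmin Il33 at -0.81 (adjusted p = 0.16), Il6 at -1.46 (adjusted p = 0.19), Cxcl2, Csf3 and Il23a. Cxcl2 gave -1.48 as deposited and -1.01 with values under background raised to it, since 0 of the 4 AAV-hSPB lungs were above background. Csf3, the neutrophil growth factor gene, gave -1.38 and -0.56 in the same way, with 0 of the 8 single-dose lungs above background. Il23a was above background in 2 of 12 lungs, both off doxycycline. Il6 in the female AAV-hSPBTLR9i replicate 2 was 7.25, above the male off-doxycycline lungs at 5.84 and 4.26. In on-doxycycline lungs Ccl2 ranged from 5.55 to 7.37 and Cxcl1 from 7.17 to 8.97.

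The proximal promoters of 4 of these list members hold a full kB site, the sequence that NF-kB dimers bind, and are shown because inflammatory induction of these genes is known to pass through it. Searched as GGGANNTTCC on both strands, the motif was present in the 300 bases around the start of 4 of the 17 list genes with a promoter in RefSeq (GRCm38.p6), and in 1.47% of all 32851 promoters. The 120 bases before each annotated start follow, 5′ to 3′ on the plus strand of chromosome 5, with matches in capitals. The motif was chosen after the values were seen, a match is a description of letters only, and binding was not measured. Of 10 measured NF-kB feedback genes, 1 was higher (10.0%, against 18.8% of the panel) and 0 lower in the pooled comparison at an unadjusted p under 0.05, with a median of 0.09. In female lungs 1 rose and 1 fell past the adjusted threshold. A part of NF-kB in the differences was not tested.
Cxcl1, chr5:90891125-90891244: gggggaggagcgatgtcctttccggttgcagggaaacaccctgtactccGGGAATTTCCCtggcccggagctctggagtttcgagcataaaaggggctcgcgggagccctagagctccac
Cxcl2, chr5:90903779-90903898: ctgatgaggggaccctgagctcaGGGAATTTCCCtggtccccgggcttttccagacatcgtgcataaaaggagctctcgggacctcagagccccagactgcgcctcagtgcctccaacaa
Cxcl3, chr5:90785981-90786100: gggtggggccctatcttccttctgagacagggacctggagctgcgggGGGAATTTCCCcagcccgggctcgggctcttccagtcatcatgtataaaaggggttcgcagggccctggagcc
Il6, chr5:30012994-30013113: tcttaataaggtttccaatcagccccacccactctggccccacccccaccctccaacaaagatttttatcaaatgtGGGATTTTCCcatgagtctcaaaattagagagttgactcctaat
The 3 chemokine genes share the same 11 letters, which match the motif on both strands by overlap, 71 to 97 bases before the start. The Il6 site begins 44 bases before its start. Of these 4, Cxcl3 had no unadjusted call in the pooled comparison (-0.70), and its off-doxycycline values of 5.01, 6.66, 1.69 and 2.50 lay on both sides of the single-dose range of 2.65 to 4.68. The values of 1.69 and 2.50 and the low end of that range were under background, so their order is not informative.

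**Figure D4:**
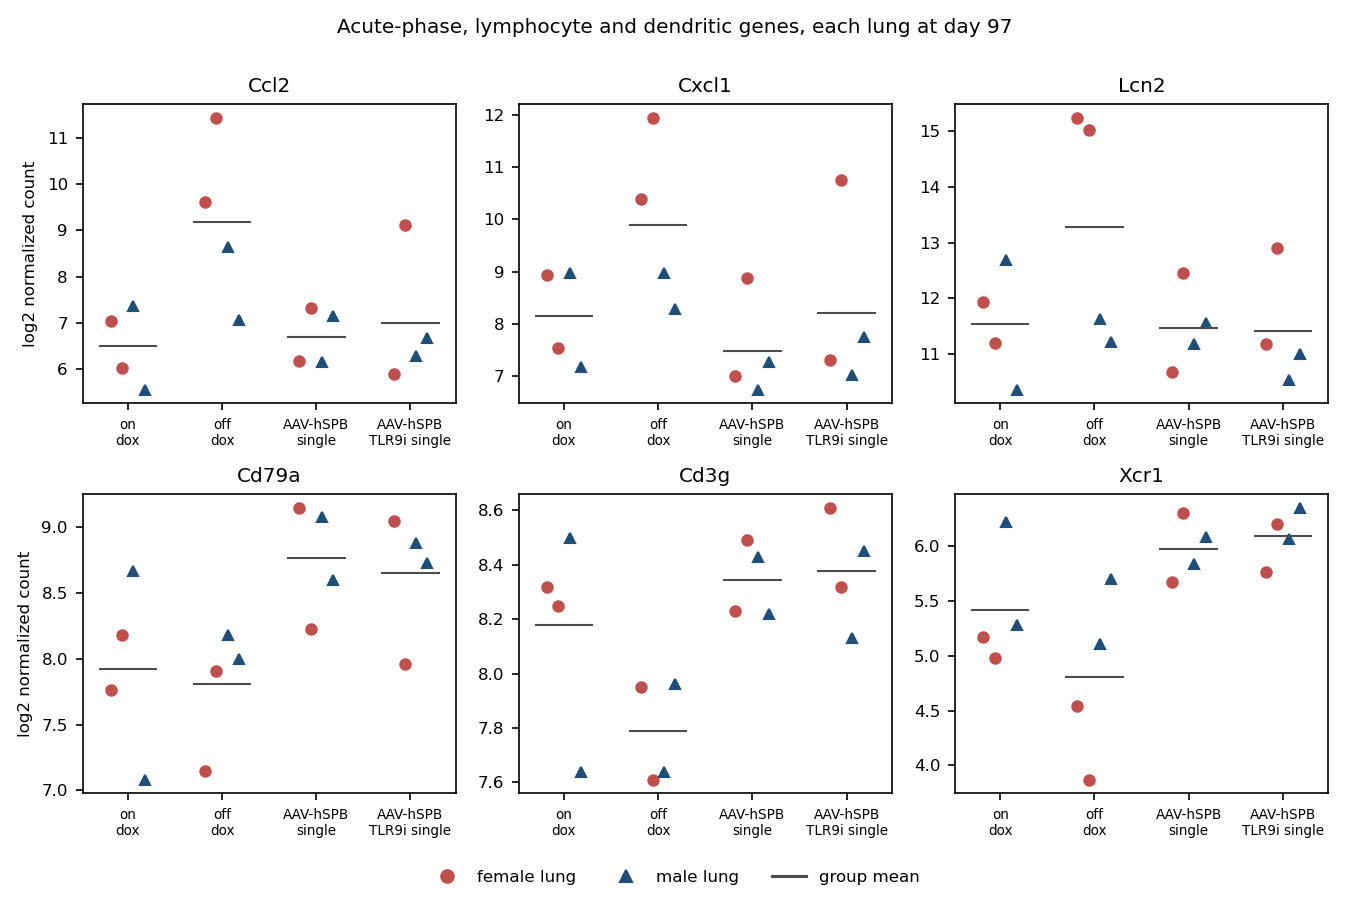
Log2 normalized counts (vertical axes, not starting at 0) of Ccl2, Cxcl1, Lcn2, Cd79a, Cd3g and Xcr1 in each day 97 lung of 4 groups, with female lungs as circles, male lungs as triangles and group means as lines. In the upper row the female off-doxycycline lungs stand high, with 1 AAV-hSPBTLR9i lung at 10.76 between them for Cxcl1, and in the lower row most single-dose lungs stand above the off-doxycycline ones.

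Among macrophage and monocyte genes, 2 of 13 measured members were higher (15.4%, against 18.8% of the panel) and 1 was lower (7.69%, against 4.92%) at an unadjusted p under 0.05, with a median of -0.04 and 0 past the adjusted threshold. These shares are near those of the panel. Cx3cr1, the fractalkine receptor of patrolling monocytes and interstitial macrophages, differed by 0.67 ± 0.18 (adjusted p = 0.073), and Csf1r, the receptor on which macrophages depend, by 0.38 ± 0.12 (adjusted p = 0.091). Marco, a scavenger receptor of alveolar macrophages, was 8.54, 8.33, 7.12 and 5.67 off doxycycline and 4.79 to 7.59 after a single dose, a difference of -1.61 ± 0.68 (adjusted p = 0.17). Lcn2, which codes for lipocalin 2 of neutrophils and injured epithelium, was 15.25 and 15.02 in the female off-doxycycline lungs, 11.63 and 11.21 in the male ones, and 10.53 to 12.91 after a single dose. The male lungs lay within the single-dose range, and the pooled difference was -1.84 ± 0.69 (adjusted p = 0.13). The other 9 measured neutrophil genes had no unadjusted call.

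Dendritic cell genes split by direction: of 6 measured, 3 were higher (Xcr1, Irf4 and Itgae) and 2 lower at an unadjusted p under 0.05, and 0 passed the adjusted test. The panel had 18.8% higher and 4.92% lower. Without off-doxycycline replicate 4, 3 were higher and 1 lower past the adjusted threshold, and without replicate 3, 1 each way. Of the 773 genes, 72 were higher and 23 lower without replicate 4, and 28 higher and 12 lower without replicate 3. Xcr1, the receptor that marks cross-presenting dendritic cells, was 4.54, 3.87, 5.11 and 5.70 off doxycycline, 5.67, 6.30, 5.84 and 6.08 after AAV-hSPB, and 5.76, 6.20, 6.06 and 6.35 after AAV-hSPBTLR9i. The value of 3.87, in off-doxycycline replicate 2, was under that lung's background of 4.19. A single pair of lungs overlapped, and the difference was 1.23 ± 0.34 (adjusted p = 0.073, and 0.048 with sex as a covariate). Irf4, a factor of B cells, plasma cells and type 2 dendritic cells, ranged from 5.36 to 6.46 off doxycycline and from 6.49 to 7.19 after a single dose, a difference of 0.96 ± 0.27 (adjusted p = 0.073). The dendritic chemokine genes Ccl17 and Ccl22, whose products attract Ccr4-bearing T cells, were lower by the same test, at -1.45 (adjusted p = 0.091) and -1.01 (adjusted p = 0.16). Ackr4, which codes for a scavenger of homing chemokines, had the largest positive difference with an unadjusted call, 2.04 ± 0.84 (adjusted p = 0.16), and rested on female off-doxycycline values of 1.74 and 3.75 beside male values of 6.86 and 7.55. Both female values were under background. The difference ran from 0.96 to 2.90 with lungs left out and was as low as 1.40 in other settings. Ackr4 is in no list and was named after its value was seen.

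Antigen presentation and interferon genes showed small differences. All 10 measured MHC class I genes had a positive difference with a median of 0.28, and 3 were higher at an unadjusted p under 0.05, among them H2-D1 at 0.38 (adjusted p = 0.15). The panel had 18.8% higher, and 0 of the 10 had such a call with each lung scaled to its median gene, 1 with all 12 reference genes and 1 without off-doxycycline replicate 2 or 3 or AAV-hSPBTLR9i replicate 2. Of 7 MHC class II genes 1 was higher by that test, H2-Ob, which codes for a peptide-loading modulator of B cells, at 0.90 (adjusted p = 0.073). Of 31 interferon-stimulated genes 4 were higher by it (12.9%, against 18.8% of the panel; median 0.15), with Mx1 at 0.63 (adjusted p = 0.16) and Ifit2 at 0.53 (adjusted p = 0.17). The share was thus no larger than in the panel, and scaling to the median gene gave 0 higher and 1 lower. Of 12 interferon-gamma-inducible genes 1 was higher, the Cxcr3 ligand gene Cxcl9, at 5.61, 5.95, 5.15 and 4.18 off doxycycline and 5.60 to 7.72 after a single dose (1.29 ± 0.58, adjusted p = 0.19). Genes that sense nucleic acids, Toll-like receptors among them, had 4 higher of 28 (14.3%, against 18.8% of the panel; median 0.08), which became 0 higher and 4 lower with scaling to the median gene. Without off-doxycycline replicate 4, 4 of 28 sensing genes and 3 of 31 interferon-stimulated genes were higher past the adjusted threshold. In that setting 72 of all 773 genes were higher past it. The 4 sensing genes higher at an unadjusted p under 0.05 in the full comparison include Irf3 at 0.27 and Ddx58 at 0.28. Tlr9 gave 0.20 (unadjusted p = 0.42).

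Epithelial, stress and remaining genes gave few calls. Of 6 lung epithelial genes measured, Tmprss2 and Ager were higher, at 0.45 (adjusted p = 0.13) and 0.32 (adjusted p = 0.15), and Il33 was lower, all at an unadjusted p under 0.05. The panel had 18.8% higher and 4.92% lower. The median of the 6 was -0.12, with 4 negative. Scaling to the median gene, or leaving out off-doxycycline replicate 1 or 2, gave 0 higher. Without off-doxycycline replicate 4, 2 were higher past the adjusted threshold, where 72 of all 773 genes were. Sod2, the mitochondrial superoxide dismutase gene induced by NF-kB, was 11.24, 11.85, 10.81 and 10.93 off doxycycline and 10.59 to 10.96 after a single dose (-0.47 ± 0.13, adjusted p = 0.073). Txn1, the thioredoxin gene, was separate between groups, at 12.81 to 13.01 off doxycycline and 12.63 to 12.79 after a single dose (-0.19 ± 0.06, adjusted p = 0.091). Inflammasome and cell death genes had 4 higher (15.4%, against 18.8% of the panel) and 3 lower (11.5%, against 4.92%) of 26. Ulk1, the kinase that starts autophagy, differed by 0.39 (adjusted p = 0.073) and the inflammasome protease gene Casp1 by 0.59 (adjusted p = 0.073), both without overlap, and Plaur, the urokinase receptor gene, by -0.86 (adjusted p = 0.073, and 0.048 with sex as a covariate). Heat shock chaperone genes (3 measured), matrix and TGF-beta genes (9), endothelial and smooth muscle genes (5) and liver genes (3) had 0 members past even the unadjusted threshold. The liver genes lay between 5.17 and 6.03 on average in the compared lungs, against up to 12.63 in 1 on-doxycycline lung, which entered the estimate of spread but not the difference.

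Both vectors were then compared with each other, since they had been pooled. At an adjusted p under 0.05 0 of 773 genes differed between AAV-hSPBTLR9i and AAV-hSPB single-dose lungs, 0 also by voom on the recovered counts. At an unadjusted p under 0.05 8 genes differed (1.03% of the panel), 7 of them higher with AAV-hSPBTLR9i. Of the 8, Il22ra1, Defa1, Oas3 and Il4 were not above background in at least 7 of the 8 lungs, and raising values to background turned the first 3 to -0.22. Gca, a calcium-binding protein gene of granulocytes, was 7.03 to 7.58 after AAV-hSPB and 7.60 to 7.82 after AAV-hSPBTLR9i, a difference of 0.36 with a 95% interval of 0.11 to 0.61 (adjusted p = 1.00). The GTPase gene Gbp2 differed by 0.39 (95% interval 0.01 to 0.76) and the interleukin 3 receptor gene Il3ra by 0.33 (0.03 to 0.63). In the median gene the 95% interval reached 0.42 to either side of the difference. A test that misses the threshold does not show that the vectors act alike.

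Set against the same 4 off-doxycycline lungs, neither vector alone gave a gene past the adjusted threshold. AAV-hSPB had 127 genes at an unadjusted p under 0.05 (16.4%), 96 higher (12.4%) and 31 lower (4.01%), and AAV-hSPBTLR9i had 142 (18.4%), 116 higher (15.0%) and 26 lower (3.36%). The controls are shared, so the following values are side by side only. Medians of B and plasma cell genes were 0.77 with AAV-hSPB and 0.73 with AAV-hSPBTLR9i, of T cell genes 0.47 and 0.45, and of acute cytokine genes -0.39 and -0.45. Cd79a differed by 0.95 and 0.84, Ccl2 by -2.49 and -2.20, and Pik3ap1 by 0.42 and 0.37. Wider gaps were seen for Marco, at -2.11 and -1.10, with a difference between vectors of 1.01 (95% interval -0.63 to 2.64), and Cxcl9, at 0.90 and 1.67, with 0.77 (-0.62 to 2.17). Without off-doxycycline replicate 4, AAV-hSPB had 34 genes past the adjusted threshold and AAV-hSPBTLR9i 3.

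The comparison differed between the sexes for 7 genes. The male difference minus the female difference passed an adjusted p under 0.05 for 7 of 773 genes (0.906%), 5 of them positive and 2 negative. In each of the 5, female off-doxycycline lungs were high and male ones were not. Within female lungs (4 single-dose against 2 off-doxycycline), 93 genes rose (12.0% of the panel) and 56 fell (7.24%), while within male lungs 0 passed, with 43 genes (5.56%) at an unadjusted p under 0.05. Each sex had 2 off-doxycycline lungs, so a difference between the sexes and a difference between these particular lungs cannot be told apart. The authors' table lists a second identifier beside the sample names, split here into 2 ranges. What it stands for is not stated. Of the off-doxycycline lungs, male replicate 4 alone has an identifier from the higher range, as do 4 of the 8 single-dose lungs. With that range as a covariate 7 genes again passed. The count was 25 without off-doxycycline replicate 1, 3 without off-doxycycline replicate 2 or AAV-hSPBTLR9i replicate 4, 4 without AAV-hSPBTLR9i replicate 3 and 14 without AAV-hSPBTLR9i replicate 2.

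Ccr1, a receptor for inflammatory chemokines on monocytes and neutrophils, was 8.40 and 9.12 in the female off-doxycycline lungs and 6.39 and 6.48 in the male ones. After a single dose it was 6.71 to 6.98 in female and 6.46 to 7.49 in male lungs. The female difference was -1.94 and the male difference 0.56, which differ by 2.49 ± 0.29 (adjusted p = 0.00052). Ccl9, which codes for a ligand of that receptor, was 10.08 and 10.80 in the female and 8.14 and 8.05 in the male off-doxycycline lungs, with 8.15 to 9.07 after a single dose. Its differences of -1.91 and 0.58 differ by 2.50 ± 0.32 (adjusted p = 0.00068). In both genes the female off-doxycycline lungs alone stood apart from the other 10 lungs.

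Il1r2, the decoy receptor gene for interleukin 1, was 7.70 and 9.16 in female and 3.11 and 4.08 in male off-doxycycline lungs, beside 3.46 to 5.56 after a single dose, much of which is at background. The sex difference was 4.36 ± 0.61 (adjusted p = 0.0012) and 3.83 with values under background raised to it. Csf3 was 4.85 and 5.49 in female and 2.43 and 2.50, under background, in male ones (2.94 ± 0.59, adjusted p = 0.027), and the call was lost with values raised to background (0.83, adjusted p = 0.26). Tnfrsf25, a death receptor gene of T cells, and the transcription factor gene Hlx went the other way. Tnfrsf25 gave 0.83 in female and -0.18 in male lungs (adjusted p = 0.019), and Hlx 0.84 and -0.57 (adjusted p = 0.047). Il4ra, the interleukin 4 receptor gene and the eighth by p, narrowly missed, at -0.78 and 0.10 (adjusted p = 0.051).

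**Figure D5:**
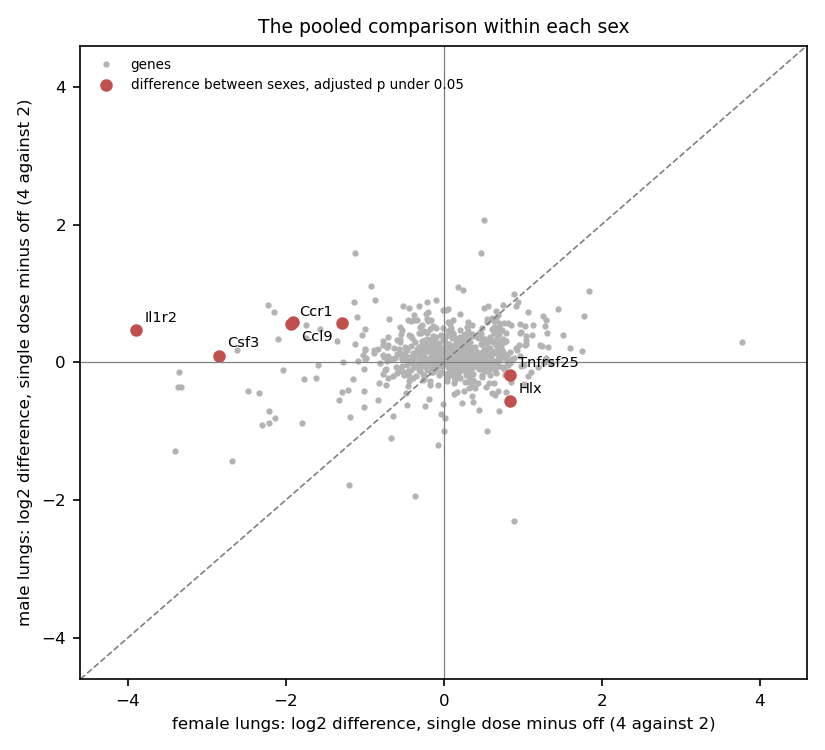
Log2 difference of each of 773 genes, single dose minus off doxycycline, in female lungs (horizontal axis, 4 against 2) and in male lungs (vertical axis, 4 against 2), with the 7 genes that differed between the sexes in red and equal differences along the dashed line. Points spread further along the female axis, and Il1r2, Csf3, Ccr1 and Ccl9 lie far left at small male differences.

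Within female lungs the lists moved as follows. Of acute cytokine and chemokine genes 8 of 25 fell (32.0%, against 7.24% of the panel) and 0 rose, among them Ccl2 (-3.40, adjusted p = 0.013), Csf3 (-2.85, adjusted p = 0.0017), Cxcl1 (-2.68, adjusted p = 0.040), Cxcl3 (-2.23, adjusted p = 0.014, with 0 of 4 AAV-hSPB lungs above background) and Il1rn, the interleukin 1 antagonist gene (-2.11, adjusted p = 0.0053). For Csf3, 0 of the 8 single-dose lungs were above background, so the size of its fall is limited by it. Of 10 neutrophil genes 1 fell (10.0%, against 7.24%), Lcn2 (-3.33, adjusted p = 0.0053), and 0 rose. Of 13 macrophage and monocyte genes 2 fell (15.4%), Cd14 (-1.60, adjusted p = 0.0051) and Itgam (-1.36, adjusted p = 0.010), and 0 rose. At an unadjusted p under 0.05, 4 of these 13 were lower (30.8%, against 13.8% of the panel) and 2 higher (15.4%, against 22.5%). Of T cell genes 5 of 24 rose (20.8%, against 12.0%), namely Cd2, Zap70, Tbx21, Gata3 and Tcf7, and of B and plasma cell genes 2 of 11 rose (18.2%), Cd22 among them (0.79, adjusted p = 0.042). Of 6 epithelial genes 2 rose (33.3%, against 12.0%), while 4 had a negative difference and the median was -0.20. Ager rose (0.68, adjusted p = 0.0046), from 13.86 and 13.82 in the off-doxycycline lungs to 14.41 to 14.60, while male off-doxycycline lungs were at 14.43 and 14.64. Tmprss2, a protease gene of airway and type II cells, rose likewise (0.86, adjusted p = 0.0053). Without off-doxycycline female replicate 2, 26 genes passed in female lungs in place of 149, and without the female AAV-hSPBTLR9i replicate 1, 82.

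In male lungs the median difference was 0.54 for B and plasma cell genes, 0.27 for T cell genes and -0.04 for acute cytokine genes, against 0.07 over the panel. The corresponding female medians were 1.03, 0.60 and -1.0, against 0.12. The list medians of B and T cell genes thus lay above the panel's in both sexes, and that of the acute cytokine genes lay below it in both, by more in female lungs. At an unadjusted p under 0.05, male lungs had 0 of 11 B and plasma cell genes and 1 of 24 T cell genes higher. Of 25 acute cytokine genes 0 were lower and 1 higher in male lungs. Over the panel 38 of 773 genes were higher and 5 lower. Tested gene by gene, the sex difference of the acute list passed for Csf3 and for none of the other 24. The mean level of 13 macrophage and monocyte genes was 8.77 and 8.93 in the female off-doxycycline lungs, 8.09 and 7.87 in the male ones and 8.00 to 8.47 after a single dose. On-doxycycline lungs spanned 7.701 to 8.385. The mean of 10 neutrophil genes was 7.75 and 8.40, then 7.51 and 7.22, against 6.97 to 8.01 after a single dose. Female replicate 1 thus lay inside the single-dose range. On-doxycycline lungs were at 8.31 and 8.26 (female) and 7.215 and 7.03 (male) for these neutrophil genes. The part of myeloid cells in the differences was not tested.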

How the data were processed

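Right-lung RNA of 24 day 97 lungs was measured by nCounter, which counts molecules through hybridized barcodes. Values were deposited by the authors as a normalized signal on linear and log2 scales; the software, background handling and normalization are not given in the sources used here. Tested on the file, the deposited log2 values put the mean of 6 reference genes at the same level in every lung, and dividing the linear values of each lung by 1 factor gave whole counts for 100% of values (within 0.01). Values of other harvest times were not used here.

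The log2 values of 773 genes were fitted by linear models with moderated variance (limma 3.58.1 under R 4.3.3), with all 24 lungs in 6 groups sharing 1 estimate of spread, and for the comparison by sex with groups split by sex. P-values are two-sided and Benjamini-Hochberg adjusted over 773 genes, with a threshold of 0.05. Scripts were tested on simulated data. A gene counted as above background in a lung over the mean plus 2 SD of the 8 dimmest control probes. Depth was 622739 to 980805 counts per compared lung, and with 4 lungs a group the spread between lungs limits precision.

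Named genes were all that passed, list members by smallest p or on which a statement turns, and the 8 smallest p by vector and by sex; others are marked as chosen after their values were seen. The comparison and all 32 gene lists were chosen with earlier results of these data known. Alternatives covered scaling, filtering, background, covariates, prior variance, voom on the recovered counts and each lung left out. Promoters are RefSeq's (GRCm38.p6). The SP-B transgene was not analysed here. Values of a few genes that these rules name are not reported here.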

Additional observations from a re-analysis of the deposited data

Results flagged for a closer look

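In groups of 4 lungs, a lung standing far from the other 3 relative to the group's range was found 6 times among 234 group checks, where chance gives about 1 in 20. Il1rn was 8.09 in AAV-hSPBTLR9i replicate 2 and 6.36 to 6.42 in the other 3 lungs. Off-doxycycline replicate 1 stood apart for Mknk1, at 6.40 beside 6.81 to 6.89, and for Cd4, at 6.93 beside 6.41 to 6.48. Ackr4 was 5.88 in AAV-hSPB replicate 2 beside 7.27 to 7.50, Casp1 was 7.45 in AAV-hSPB replicate 4 beside 7.34 in each of the others, and Txn1 was 12.63 in AAV-hSPBTLR9i replicate 1 beside 12.73 to 12.74.

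The difference from off doxycycline was not the same in male and female lungs for 7 genes by the test of that difference. For 6 of them, male minus female, it was 2.49 for Ccr1, 2.50 for Ccl9, 4.36 for Il1r2, 2.94 for Csf3, -1.02 for Tnfrsf25 and -1.41 for Hlx. Each rests on 2 off-doxycycline lungs of each sex.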

How the results depend on the processing

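No paired analysis was possible because the labels give the groups no shared replicate numbers. The pooled count of 3 genes became 2 with the compared groups alone, 0 of the 3 among them. It was 5 with the lowest 25% of genes removed, 10 with sex as a covariate and 1 with a trended prior variance or voom. The count was 0 with all 12 reference genes, the median gene or the series matrix values, and 0 to 95 with each lung left out. AAV-hSPB alone gave 1 with the compared groups alone, 3 with the lowest 25% removed and 0 to 34 with lungs left out, and AAV-hSPBTLR9i 0 to 3. The 7 genes by sex became 15 with the compared groups alone, 24 with the lowest 25% removed, 12 with all 12 reference genes or the matrix values, 11 with the median gene, 29 with a trended prior variance and 3 to 25 with lungs left out. The female count ran from 26 to 144 with lungs left out, the unadjusted pooled count from 105 to 258 and the B and plasma cell count from 5 to 9. The acute cytokine count was 3 with the lowest 25% removed and 1 to 11 with lungs left out. Counts between vectors and in male lungs were 0 under every alternative run. Genes without a call changed sign as follows: Foxp3 to -0.011, and Il22ra1, Defa1 and Oas3 between vectors to -0.223, with values raised to background, and Il7r to -0.012 with the median gene. With lungs left out, Cxcl3 ran from -1.45 to 0.20, Foxp3 from -0.11 to 0.51, Il7r from -0.14 to 0.23, Gzma from -0.012 to 0.36 and Prf1 from -0.031 to 0.34. The causes were not tested. Genes near background, such as Csf3 and Cxcl2, have differences limited by it.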
